A study of Mus musculus with 16 samples.

Results

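The genes described here are 36 genes that fold, modify, move or degrade proteins in the endoplasmic reticulum (ER), or that sense and relay stress in it, out of 18193 genes that the array covers with a probe set of a single gene symbol. They come from a list of names that was drawn up with earlier results of these data known. Each was matched by symbol, or by synonym for Ero1a (listed as Ero1l) and Ero1b (listed as Ero1lb), and each was read from the brightest of its probe sets, by the mean of the 16 arrays. All 36 had such a probe set, and all 36 passed a filter on low values set at percentile 40 of the mean levels. The lungs were left lungs of Balb/c mice, 23 weeks old, with 1 lung on each of 16 Affymetrix mouse genome arrays. The 4 groups held 4 mice each. SHS females and SHS males had been exposed before birth to second-hand smoke (SHS), given as sidestream smoke on 7 days of each week, 5 h a day, at a particle level of 10 mg/m3, and air females and air males had been exposed to filtered air on that schedule. All mice, the air groups included, were sensitized as adults with the egg protein ovalbumin (OVA) by injection at 19 and 21 weeks and challenged with OVA aerosol in weeks 22 and 23, so every comparison was made in lungs given an allergen. Females and males were never set against each other in level. The sources used here do not name litters or mothers, so that siblings cannot be told from unrelated mice.

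Proteins that are secreted or set in membranes enter the ER through the Sec61 channel, fold there with the help of chaperones such as BiP, and are held together by disulfide bonds that isomerases form and rearrange. When unfolded proteins build up, the sensors IRE1, PERK and ATF6 start the unfolded protein response. ATF6 and the spliced form of XBP1 raise transcription of chaperones and of genes for degradation, while PERK slows translation and favours ATF4, whose later targets include CHOP. In the lung, cells that secrete much protein, among them alveolar type 2 cells, goblet cells and antibody-secreting plasma cells, depend heavily on this machinery. The probe sets measure the amount of transcript, not the splicing of Xbp1 nor any protein.

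A known regulatory sequence of these genes is the ER stress element, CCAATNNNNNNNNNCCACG, which binds NF-Y together with ATF6. It was searched for on both strands in windows of 300 bases, 250 before and 50 after each gene's start, as given by RefSeq for the assembly GRCm38.p6. A window was found for 31 members, and Hyou1, Manf, Derl1, Sec11c and Atf6 had none here. The element was present in 10 of these 31 (32.3%), namely Calr, Canx, Creld2, Derl3, Dnajc3, Ero1b, Hsp90b1, Hspa5, Pdia6 and Syvn1, against 39 of 32851 windows of all genes (0.119%). The 6 of them with the largest averaged SHS difference are shown because several of the results below turn on them. Sequences run 5′ to 3′ on the strand of the gene, and capitals mark the element or, where it lies on the other strand, its reverse complement.
Creld2, chr15:88819396-88819695, + strand: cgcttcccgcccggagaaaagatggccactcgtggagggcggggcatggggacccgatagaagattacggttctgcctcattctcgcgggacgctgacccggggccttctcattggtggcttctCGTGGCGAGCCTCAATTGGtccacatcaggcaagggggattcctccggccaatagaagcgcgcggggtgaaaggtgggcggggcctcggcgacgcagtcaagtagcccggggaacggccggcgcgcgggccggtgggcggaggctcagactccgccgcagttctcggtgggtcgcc
Pdia6, chr12:17266339-17266638, + strand: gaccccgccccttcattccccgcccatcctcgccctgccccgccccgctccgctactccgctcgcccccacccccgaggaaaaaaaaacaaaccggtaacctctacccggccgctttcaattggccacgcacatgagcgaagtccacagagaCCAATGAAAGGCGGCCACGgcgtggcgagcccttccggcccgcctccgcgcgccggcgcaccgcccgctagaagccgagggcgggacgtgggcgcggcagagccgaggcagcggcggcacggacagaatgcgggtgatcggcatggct
Calr, chr8:84846882-84847181, - strand: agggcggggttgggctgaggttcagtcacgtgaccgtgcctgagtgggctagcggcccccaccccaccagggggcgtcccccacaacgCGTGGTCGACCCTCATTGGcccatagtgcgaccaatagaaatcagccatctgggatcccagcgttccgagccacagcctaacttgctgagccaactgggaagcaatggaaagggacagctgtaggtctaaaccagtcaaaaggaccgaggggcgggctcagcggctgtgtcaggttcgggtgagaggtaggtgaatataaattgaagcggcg
Hspa5, chr2:34771840-34772139, + strand: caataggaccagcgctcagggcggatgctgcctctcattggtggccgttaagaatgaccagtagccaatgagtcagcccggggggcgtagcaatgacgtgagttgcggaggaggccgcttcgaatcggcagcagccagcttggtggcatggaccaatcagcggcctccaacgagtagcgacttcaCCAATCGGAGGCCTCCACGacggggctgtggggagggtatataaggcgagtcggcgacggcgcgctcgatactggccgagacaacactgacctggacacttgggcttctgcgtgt
Syvn1, chr19:6046326-6046625, + strand: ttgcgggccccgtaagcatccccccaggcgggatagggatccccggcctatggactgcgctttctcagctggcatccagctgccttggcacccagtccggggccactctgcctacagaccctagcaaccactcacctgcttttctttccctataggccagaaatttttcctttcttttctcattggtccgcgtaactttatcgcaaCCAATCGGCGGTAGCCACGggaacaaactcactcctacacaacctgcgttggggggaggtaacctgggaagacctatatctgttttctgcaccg
Hsp90b1, chr10:86705395-86705694, - strand: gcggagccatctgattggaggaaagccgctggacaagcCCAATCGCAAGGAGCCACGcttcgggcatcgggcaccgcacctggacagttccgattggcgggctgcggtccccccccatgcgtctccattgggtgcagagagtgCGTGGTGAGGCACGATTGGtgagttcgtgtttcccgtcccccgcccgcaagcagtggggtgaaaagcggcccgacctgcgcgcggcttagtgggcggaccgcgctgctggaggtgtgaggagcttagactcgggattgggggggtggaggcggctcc
In Hspa5 the element began 65 bases before the start, in Syvn1 44, in Pdia6 98, in Creld2 126 and in Calr 162. Hsp90b1 held it once on each strand, beginning 212 and 107 bases before the start. ER stress element II, ATTGGNCCACG, was found in Dnajb11 and Herpud1 (6.45% of members and 0.0365% of all windows). The unfolded protein response element TGACGTGG was found in no member window, against 0.676% of all windows. The composite C/EBP-ATF site TGATGCAA lay in the windows of Chac1 and Herpud1 (6.45%, against 0.895% of all windows). None of these matches overlapped another, and a match describes letters only.

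Arrays of one sex correlated with each other at 0.990 to 0.998 across probe sets, and arrays of different sexes at 0.959 to 0.974. Array medians lay between 7.00 and 7.04 on the log2 scale. Markers of lung epithelium fitted the labelled tissue: 7 alveolar type 2 markers averaged 13.2 to 13.6 and 5 club cell markers 13.5 to 14.3 on the log2 scale over all arrays. SHS female replicate 4 stood apart, with a mean correlation of 0.992 with the other SHS females and 0.995 with the air females. SHS male replicate 4 did not, at 0.995 with the other SHS males and 0.993 with the air males. Both arrays were, however, the lowest of their group for many members (20 and 19 of 36). Some results are therefore given with and without them. That choice was made after seeing the members' values, so the results without them are no independent support.

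Transcripts of the folding machinery were higher in the lungs of SHS mice than in those of air mice, in both sexes. Of 6 stress sensors and transcription factors, 1 rose in females, 1 in males and 2 in the average. Of 3 outputs of the PERK and ATF4 branch, 1 rose, in the average only. Ddit3 and Trib3 passed in no comparison. Of 20 other ATF4 targets, 6 rose in females, 9 in males and 10 in the average, while 1 fell in males and in the average. In females 13 members rose and 0 fell, against 3.29% of all genes higher and 0.676% lower. In males 13 rose and 0 fell, against 4.17% higher and 2.47% lower in all genes. Averaged over the sexes 21 rose and 0 fell, against 9.2% and 4.32% of all genes. The test was limma's moderated test, two-sided, on all 45037 probe sets, and a gene is said to have risen or fallen at an adjusted p under 0.05. At an unadjusted p under 0.05, 25 members differed in females, 21 in males and 26 in the average. The share of all genes at that threshold was not counted, so these counts have no background beside them. In these whole-lung samples fewer or more cells of a type and less or more RNA per cell cannot be told apart.

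The 9 members that rose in both sexes were Hspa5, Sdf2l1, Dnajb11, Calr, Pdia6, Manf, Creld2, Sec61b and Ssr1. Hsp90b1, Dnajc3, Pdia4 and Eif2ak3 passed the test in females and not in males, and Pdia3, P4hb, Syvn1 and Atf4 in males and not in females. Dnajb9, Canx, Derl2 and Chac1 passed it only when the sexes were averaged. The remaining 15 passed in none of these comparisons. Fitted on the female arrays alone, 6 of the 13 female calls were left, those of Hspa5, Sdf2l1, Dnajb11, Pdia4, Pdia6 and Manf. The median log2 difference of the 36 members was 0.27 in females, 0.19 in males and 0.23 averaged, beside medians of 0.00, 0.01 and 0.00 over all genes. It was above 0 for 34 members in females and for 33 in males. In females all 4 SHS arrays lay above all 4 air arrays for 19 members, as they did for 7.74% of all genes, and in males for 19 members, as for 10.5% of all genes. The opposite order was found for 0 members in either sex, beside 2.65% of all genes in females and 8.53% in males.

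**Figure D1:**
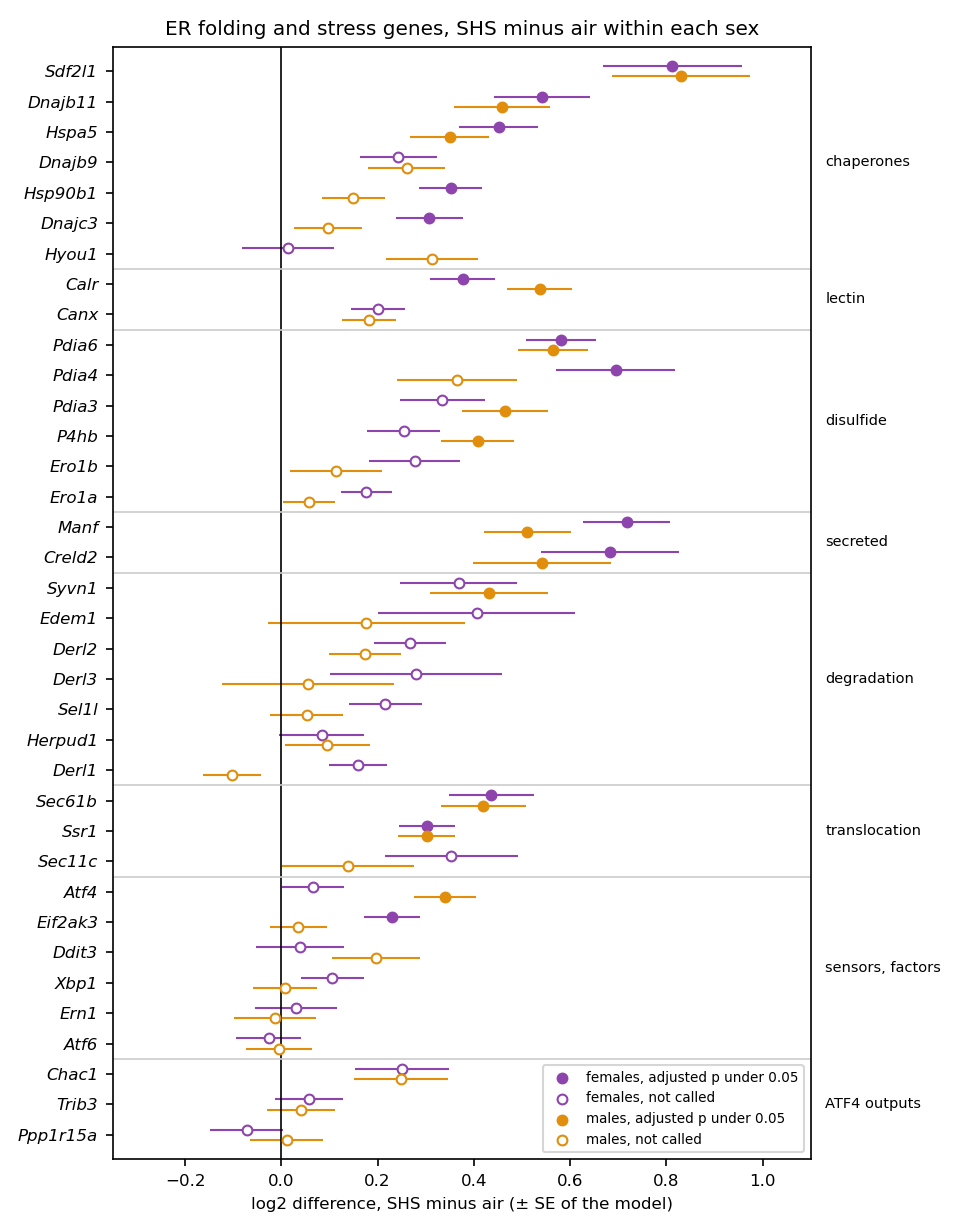
Log2 difference of SHS minus air for each of the 36 genes, grouped by role, with purple points for females and orange points for males, bars for the standard error of the model and filled points for an adjusted p under 0.05. Sdf2l1 reaches the highest value in each sex, up to 0.83 in males. Manf, Pdia4, Creld2 and Pdia6 come next in females, and most sensors lie near 0.

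Of the 7 chaperones of the ER lumen, 5 rose in females, 3 in males and 6 in the average. Sdf2l1, which works with DnaJ co-chaperones to keep client proteins soluble, had the largest difference of the 36 members in each sex. Its log2 levels were 10.76, 10.69, 10.46 and 10.01 in SHS females and 9.59, 9.46, 9.57 and 10.04 in air females. The female groups overlapped by 1 array on each side, SHS replicate 4 lying just under air replicate 4. In SHS males the levels were 10.95, 10.99, 11.09 and 10.82, and in air males 10.14, 10.28, 9.94 and 10.16, with no overlap. The difference was 0.81 ± 0.14 in females (SE; 1.76-fold, adjusted p = 0.00449) and 0.83 ± 0.14 in males (1.78-fold, adjusted p = 0.00296).

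Hspa5 encodes BiP, the Hsp70 chaperone that also keeps the sensors inactive in unstressed cells. Its levels were 13.48, 13.47, 13.52 and 13.38 in SHS females and 12.88, 12.98, 13.02 and 13.16 in air females. Levels of 13.43, 13.43, 13.69 and 13.74 were measured in SHS males, against 13.12, 13.24, 13.25 and 13.27 in air males. The groups did not overlap in either sex, and the SHS males fell into a lower and a higher pair. Hspa5 rose by 0.45 ± 0.08 in females (1.37-fold, adjusted p = 0.00564) and by 0.35 ± 0.08 in males (1.27-fold, adjusted p = 0.0193). The call in males was lost without air replicate 1, SHS replicate 3 or SHS replicate 4, with adjusted p of up to 0.0748.

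Dnajb11, a co-chaperone of BiP that binds unfolded chains, had levels of 11.18, 11.04, 11.32 and 10.79 in SHS females, against 10.69, 10.44, 10.46 and 10.58 in air females. In males the levels were 11.09, 11.11, 11.23 and 10.97 after SHS and 10.56, 10.74, 10.55 and 10.71 after air. Every SHS array lay above every air array of its sex, and the differences were 0.54 ± 0.10 (adjusted p = 0.00606) and 0.46 ± 0.10 (adjusted p = 0.0126; 0.0525 without SHS male replicate 3). Hsp90b1, the ER member of the Hsp90 family, stood at 13.51, 13.24, 13.47 and 13.34 in SHS females and 13.04, 13.05, 12.99 and 13.08 in air females, a rise of 0.35 ± 0.07 (adjusted p = 0.0065). Its difference in males was 0.15 ± 0.07 (adjusted p = 0.206), although the male groups did not overlap either.

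Dnajc3, a co-chaperone that also inhibits PERK, rose by 0.31 ± 0.07 in females (adjusted p = 0.0227), with levels of 11.50 to 11.70 after SHS and 11.21 to 11.40 after air. That call held in only 3 of 8 fits that left out 1 array, with adjusted p of up to 0.0837, and was lost without air replicate 2, 3 or 4 and without SHS replicate 1 or 3. The male difference of Dnajc3 was 0.10 ± 0.07. Dnajb9, a co-chaperone that favours binding of BiP to IRE1, had differences of 0.24 ± 0.08 and 0.26 ± 0.08 with no overlap in either sex and passed the test in the average at 0.25 ± 0.06 (adjusted p = 0.00774). Hyou1, the nucleotide exchange factor of BiP, measured 0.01 ± 0.10 in females and 0.31 ± 0.10 in males on the probe set used, and it passed in no comparison. Its other probe sets differed from that one: one measured 0.48 in females and 0.47 in males (adjusted p = 0.00362 in the average), and another 0.72 in females (adjusted p = 0.00897).

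The lectin chaperones hold glycoproteins while they fold. Calr, which encodes calreticulin, measured 13.73, 13.59, 13.70 and 13.67 in SHS females and 13.36, 13.31, 13.13 and 13.38 in air females. In SHS males it measured 13.12, 13.16, 13.23 and 13.30, and in air males 12.66, 12.67, 12.64 and 12.68, so the air males were nearly alike and well below every SHS male. Calr rose by 0.38 ± 0.07 in females (1.30-fold, adjusted p = 0.00485) and by 0.54 ± 0.07 in males (1.45-fold, adjusted p = 0.000327). All 3 of its probe sets passed in both sexes. Canx, which encodes the membrane-bound calnexin, differed by 0.20 ± 0.06 and 0.18 ± 0.06, without overlap, and passed in the average at 0.19 ± 0.04 (adjusted p = 0.00413). A dimmer probe set of Canx passed in females at 0.36 (limma, adjusted p = 0.0307) and measured 0.27 in males (adjusted p = 0.0747).

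**Figure D2:**
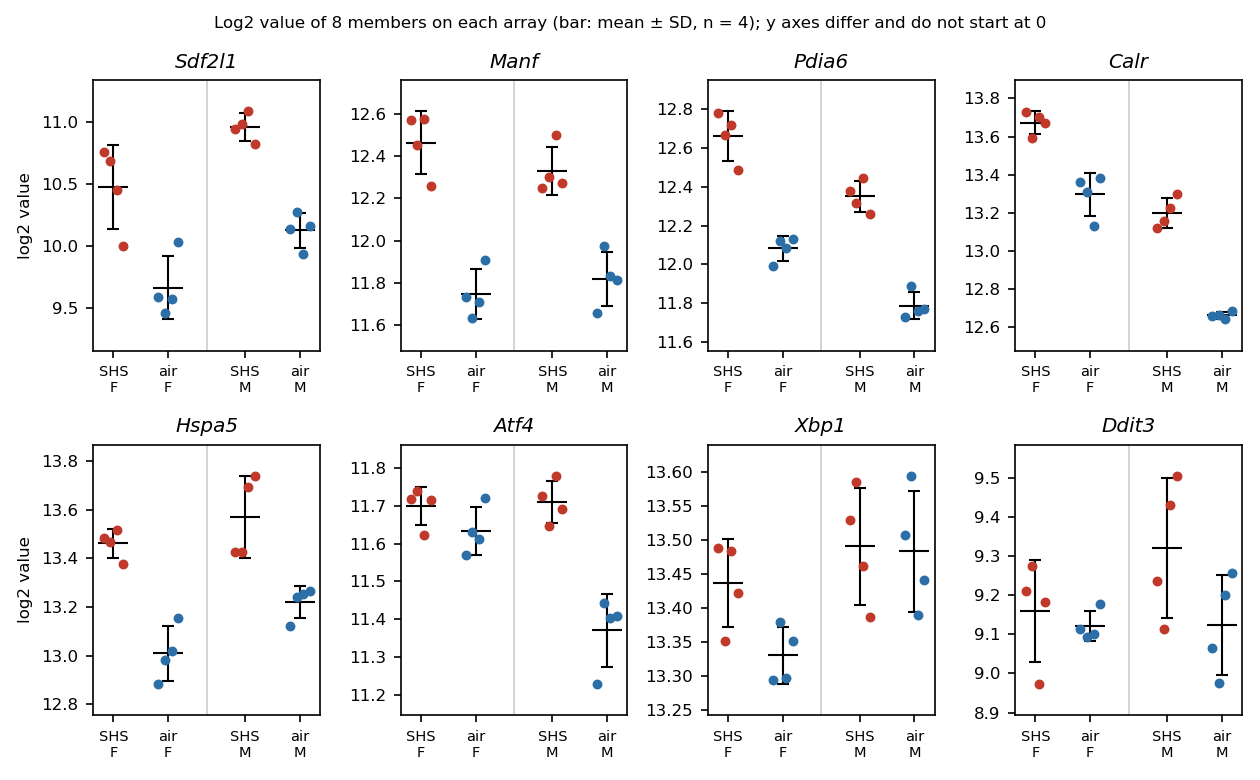
Log2 level of 8 of the genes on each array, in SHS females, air females, SHS males and air males, with red points for SHS, blue points for air and bars for the mean ± SD of 4 arrays. Sdf2l1, Manf, Pdia6, Calr and Hspa5 are higher in SHS lungs of both sexes, Atf4 is separated from air in males, and the SHS and air arrays overlap for Xbp1 and Ddit3.

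Of the 6 disulfide isomerases and oxidases, 2 rose in females, 3 in males and 4 in the average. Pdia6, an isomerase that associates with BiP, had levels of 12.78, 12.67, 12.72 and 12.49 in SHS females, against 11.99, 12.12, 12.08 and 12.13 in air females. Its levels were 12.38, 12.31, 12.45 and 12.26 in SHS males and 11.73, 11.89, 11.76 and 11.77 in air males. The gap between the groups was wider than the spread within any of them, and the differences, 0.58 ± 0.07 (1.5-fold, adjusted p = 0.000318) and 0.56 ± 0.07 (1.48-fold, adjusted p = 0.000394), were nearly the same size. A second, dimmer probe set of Pdia6 measured 0.04 in females and 0.49 in males, so the female value rests on 1 of its 2 probe sets.

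Pdia4, an isomerase with several thioredoxin-like domains, measured 10.73, 10.58, 10.64 and 10.19 in SHS females and 9.87, 9.86, 9.59 and 10.04 in air females, a rise of 0.69 ± 0.12 (1.62-fold, adjusted p = 0.00495). In SHS males it measured 11.44, 11.39, 11.38 and 11.05, and in air males 10.89, 11.11, 10.75 and 11.05. SHS male replicate 4 was the low array there. The male difference of 0.36 ± 0.12 missed the threshold at an adjusted p of 0.1, and without that array it was 0.45 (adjusted p = 0.048). A dim second probe set of Pdia4 measured -0.03 in females and 0.05 in males, and with the mean of both probe sets the female call was lost (0.33, adjusted p = 0.063).

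Pdia3, the isomerase that partners calnexin and calreticulin, measured 12.52, 12.48, 12.49 and 12.20 in SHS males and 11.98, 12.10, 11.88 and 11.86 in air males, a rise of 0.47 ± 0.09 (adjusted p = 0.00564). Its female difference was 0.33 ± 0.09, without overlap and with an adjusted p of 0.0513. P4hb, the founding protein disulfide isomerase, rose by 0.41 ± 0.08 in males (adjusted p = 0.00468), where the levels were 12.59 to 12.79 after SHS and 12.20 to 12.42 after air, and measured 0.25 ± 0.08 in females (adjusted p = 0.0839). The oxidases that pass electrons on to oxygen differed less on the probe sets used. Ero1a measured 0.18 ± 0.05 in females and 0.06 ± 0.05 in males, and Ero1b 0.28 ± 0.10 and 0.11 ± 0.10. On these neither passed in any comparison, although the Ero1a levels of SHS females, 10.11 to 10.14, did not overlap those of air females, 9.93 to 9.98. A dimmer probe set of Ero1a measured 0.31 in females and 0.34 in males and passed in the average at 0.32 (limma, adjusted p = 0.0224).

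Both secreted or luminal stress factors rose in both sexes. Manf, a small protein retained in the ER with BiP and released under stress, measured 12.57, 12.45, 12.58 and 12.26 in SHS females and 11.73, 11.63, 11.71 and 11.91 in air females. In males the levels were 12.25, 12.30, 12.50 and 12.27 after SHS and 11.66, 11.97, 11.83 and 11.81 after air. No air array reached the lowest SHS array of its sex. The rise was 0.72 ± 0.09 in females (1.64-fold, adjusted p = 0.000357) and 0.51 ± 0.09 in males (1.43-fold, adjusted p = 0.00338).

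Creld2, a luminal protein known as a target of the unfolded protein response, measured 11.67, 11.41, 11.76 and 10.92 in SHS females and 10.68, 10.73, 10.77 and 10.85 in air females. SHS female replicate 4 was close to the air arrays and the other SHS females were far above them. Levels of 11.49, 11.48, 11.74 and 11.32 were found in SHS males, against 10.72, 11.11, 10.93 and 11.10 in air males. The differences were 0.68 ± 0.14 (adjusted p = 0.0136) and 0.54 ± 0.14 (adjusted p = 0.0355). Leaving out 1 array removed the call in females without SHS replicate 1 or 3 (adjusted p of up to 0.0597), and in males without air replicate 1 or 3 or SHS replicate 1, 2 or 3 (up to 0.121).

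Translocation into the ER is carried out by the Sec61 channel, which Sec61b is part of, and the attached TRAP complex, which Ssr1 belongs to. Sec61b measured 12.68, 12.56, 12.65 and 12.31 in SHS females and 12.21, 12.09, 12.01 and 12.14 in air females. Its male levels were 12.82, 12.81, 12.88 and 12.57 after SHS and 12.27, 12.47, 12.35 and 12.31 after air. Both rises, 0.44 ± 0.09 (adjusted p = 0.0106) and 0.42 ± 0.09 (adjusted p = 0.0102), came without overlap, and in both sexes SHS replicate 4 was the lowest of the SHS arrays. Ssr1 varied little within groups, at 12.13 to 12.20 in SHS females, 11.82 to 11.91 in air females, 11.98 to 12.04 in SHS males and 11.64 to 11.81 in air males. It rose by 0.30 ± 0.06 in each sex (adjusted p = 0.00826 in females and 0.00621 in males). Sec11c, a subunit of the signal peptidase, passed in no comparison, with 0.35 ± 0.14 and 0.14 ± 0.14.

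The genes for ER-associated degradation, which extracts misfolded proteins and passes them to the proteasome, showed fewer calls: of 7, 0 rose in females, 1 in males and 2 in the average. Syvn1, the ubiquitin ligase Hrd1, measured 10.64, 10.62, 10.71 and 10.51 in SHS males and 10.02, 10.26, 10.16 and 10.32 in air males, a rise of 0.43 ± 0.12 (adjusted p = 0.049). That call was lost without any single male array, with adjusted p of up to 0.14. In females its difference was 0.37 ± 0.12 (adjusted p = 0.123), and the average passed at 0.40 ± 0.09 (adjusted p = 0.00603). A dimmer probe set of Syvn1 passed in males at 0.36 (limma, adjusted p = 0.0326) and in the average at 0.29 (adjusted p = 0.00836). It measured 0.22 in females (adjusted p = 0.243). Derl2, a membrane component of the same machinery, passed in the average at 0.22 ± 0.05 (adjusted p = 0.0114). Sel1l, the partner of Hrd1, measured 0.22 ± 0.08 and 0.05 ± 0.08, and Herpud1, a stress-inducible adaptor of the ligase, 0.08 ± 0.09 and 0.10 ± 0.09. A dimmer probe set of Sel1l passed in the average at 0.23 (limma, adjusted p = 0.0195).

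Derl1 was ambiguous between probe sets. The one used measured 0.16 ± 0.06 in females and -0.10 ± 0.06 in males, whereas 2 of its other 3 probe sets passed in both sexes, at 0.28 and 0.29 for one and 0.43 and 0.44 for the other. Edem1, a lectin that recognises misfolded glycoproteins, and Derl3, a derlin prominent in secretory cells, were the most variable members. Edem1 measured 12.05, 11.69, 12.10 and 11.25 in SHS females and 11.45, 11.42, 11.32 and 11.29 in air females. In SHS males it measured 11.79, 11.73, 11.73 and 10.75, and in air males 11.23, 11.62, 11.14 and 11.30. Derl3 had the same layout, at 9.97, 9.63, 9.93 and 9.11 in SHS females, 9.23, 9.47, 9.38 and 9.44 in air females, 9.27, 9.20, 9.26 and 8.53 in SHS males and 8.84, 9.27, 8.83 and 9.11 in air males. In both genes and both sexes SHS replicate 4 was below every other array of its sex, and neither gene passed the test with all arrays. A second probe set of Edem1 passed in females at 0.33 (adjusted p = 0.0382).

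The sensors and transcription factors of the unfolded protein response differed less. Of 6, only Eif2ak3 rose in females, only Atf4 in males, and these 2 in the average, where 9.2% of all genes rose. Eif2ak3, which encodes PERK, measured 10.29, 10.29, 10.28 and 10.26 in SHS females and 10.14, 9.95, 10.05 and 10.05 in air females, a difference of 0.23 ± 0.06 (adjusted p = 0.041). That call held in 2 of 8 fits that left out 1 array, those without air replicate 1 and without SHS replicate 4, and reached an adjusted p of 0.136 in the others. In males Eif2ak3 measured 0.04 ± 0.06, and its averaged difference of 0.13 ± 0.04 (adjusted p = 0.0489) passed in 2 of 16 such fits, those without air female replicate 1 or SHS female replicate 4. Atf4, the transcription factor downstream of PERK, measured 11.72, 11.65, 11.78 and 11.69 in SHS males and 11.23, 11.44, 11.40 and 11.41 in air males, a rise of 0.34 ± 0.06 (1.27-fold, adjusted p = 0.00538). SHS females, at 11.62 to 11.74, overlapped air females, at 11.57 to 11.72, with a difference of 0.07 ± 0.06. In the average Atf4 rose by 0.20 (limma, adjusted p = 0.00785). Both calls of Atf4 rest on the brightest of its 3 probe sets. With their mean the male difference was 0.18 (adjusted p = 0.148), and the averaged call was lost too (adjusted p = 0.149).

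Ern1, which encodes IRE1, and Atf6 stood close to 0, at 0.03 ± 0.08 and -0.03 ± 0.07 in females and -0.01 ± 0.08 and -0.01 ± 0.07 in males. A dimmer probe set of Atf6 passed in the average at 0.33 (adjusted p = 0.00867). Xbp1, the transcript that IRE1 splices, measured 13.49, 13.35, 13.48 and 13.42 in SHS females and 13.29, 13.38, 13.30 and 13.35 in air females, and 13.39 to 13.59 in both male groups. Its differences were 0.11 ± 0.07 and 0.01 ± 0.07, while a dim probe set of Xbp1 fell by 0.40 in the average (adjusted p = 0.0263). Ddit3, which encodes CHOP, a factor that promotes cell death in prolonged stress, measured 9.21, 9.27, 8.97 and 9.18 in SHS females and 9.11, 9.09, 9.10 and 9.18 in air females. In males it measured 9.24, 9.11, 9.43 and 9.51 after SHS and 9.07, 8.98, 9.20 and 9.26 after air, overlapping in both sexes, with differences of 0.04 ± 0.09 and 0.20 ± 0.09 (adjusted p = 0.234).

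Among the outputs of the ATF4 branch, Chac1, which degrades glutathione, passed in the average at 0.25 ± 0.07 (adjusted p = 0.0264) from 0.25 ± 0.10 in each sex. Its levels were 7.97, 7.52, 7.47 and 7.59 in SHS females and 7.25, 7.57, 7.30 and 7.43 in air females, and 7.64, 7.61, 7.52 and 7.53 in SHS males and 7.36, 7.36, 7.22 and 7.36 in air males. The call was lost in 5 of 16 fits that left out 1 array, without air female replicate 1 or 3, air male replicate 3 or SHS male replicate 1 or 2. Trib3, a pseudokinase induced with CHOP, measured 0.06 ± 0.07 and 0.04 ± 0.07, and Ppp1r15a, the phosphatase subunit that restores translation, -0.07 ± 0.08 and 0.01 ± 0.08. Neither passed in any comparison.

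**Figure D3:**
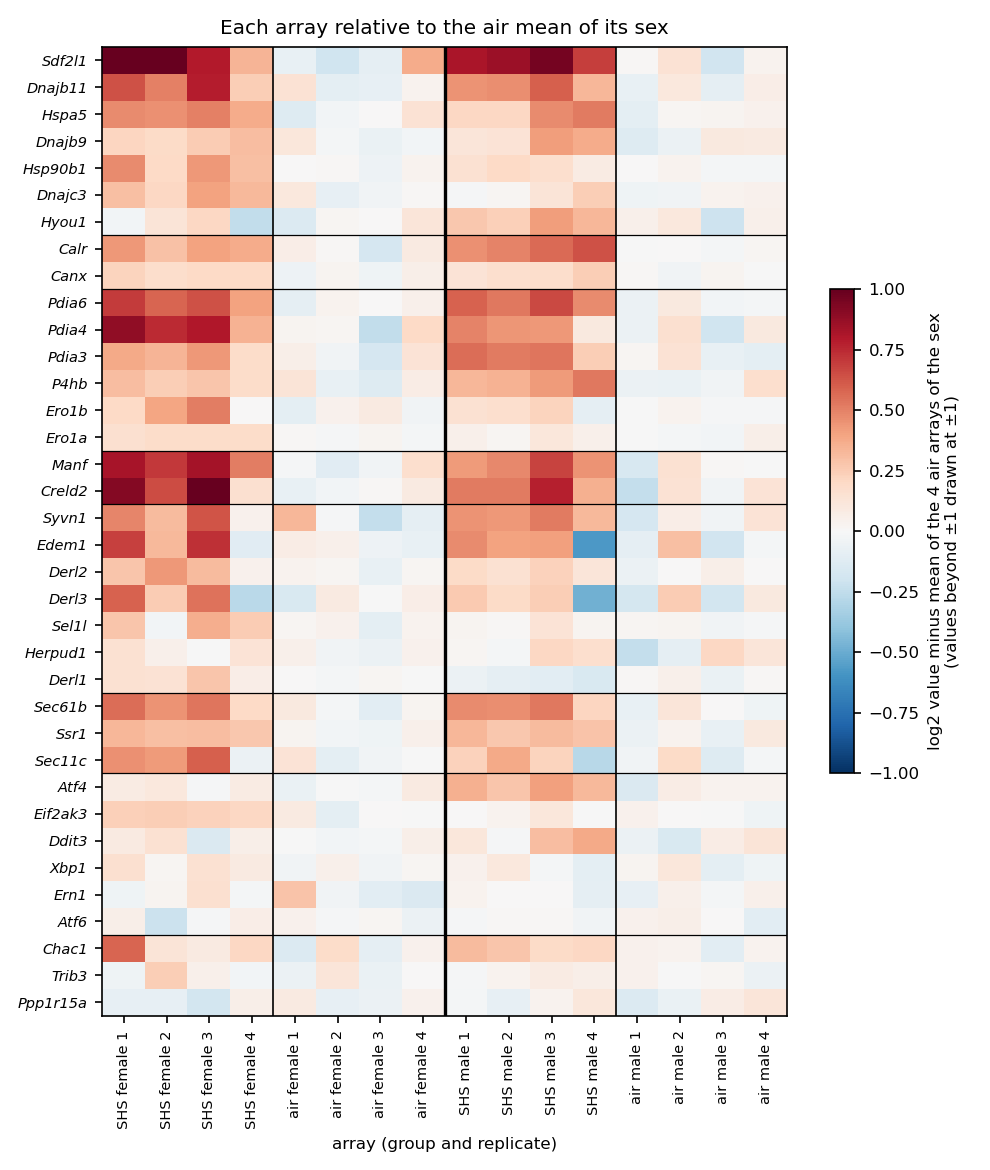
Log2 value of each gene on each array minus the mean of the 4 air arrays of that sex, with red above and blue below that mean and values beyond 1 drawn at 1. SHS columns are mostly red across the chaperones, isomerases, Manf and Creld2. Among the exceptions are Hyou1 on SHS female replicates 1 and 4 and Ero1b on SHS male replicate 4, which lie below the air mean. SHS replicate 4 of each sex is paler or blue at Edem1, Derl3 and Sec11c.

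Summarised per array, the median of the 36 members relative to the air mean of the sex was 0.30, 0.25, 0.34 and 0.18 on the SHS female arrays and -0.05 to 0.04 on the air female arrays. It was 0.22, 0.20, 0.28 and 0.21 on the SHS male arrays and -0.06 to 0.04 on the air male arrays. On the SHS arrays 27 to 34 of the 36 members lay above the air mean of their sex. SHS female replicate 4 had the lowest of the 4 values for 20 of 36 members, and SHS male replicate 4 for 19 of 36.

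**Figure D4:**
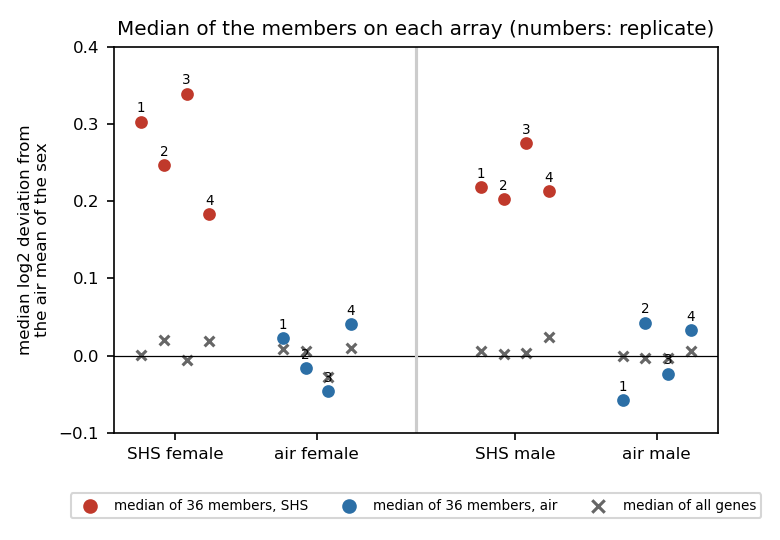
Median over the 36 genes of the log2 value minus the mean of the air arrays of that sex, for each array, with its replicate number, red for SHS and blue for air. Grey crosses are the same median over all genes. The SHS arrays lie at 0.18 to 0.34, the air arrays at -0.06 to 0.04, and the crosses near 0.

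Without both SHS arrays numbered 4, 22 members rose in females, 15 in males and 26 in the average. Many more probe sets of the whole array were called in females and in the average too, as counted in the closing section. The added calls in females and in the average are therefore not particular to the members. For males no such count is given. The share of all genes called in this fit was not counted, so its counts have no share beside them. Since these arrays were often the lowest SHS arrays for the members, leaving them out also raises the members' differences by itself. In females the added members were Canx, Pdia3, P4hb, Ero1b, Edem1, Syvn1, Derl2, Derl3 and Sec11c. Edem1 then differed by 0.58 in females (adjusted p = 0.00394) and by 0.43 in males (adjusted p = 0.03), and Derl3 by 0.46 (adjusted p = 0.0149) and 0.23 (adjusted p = 0.234). Of the plasma cell markers, several were also low on those arrays. Prdm1 was not, with its highest SHS female level, 9.29, on replicate 4. Mzb1, an ER co-chaperone of antibody-secreting cells, measured 13.03, 12.66, 12.81 and 12.16 in SHS females and 11.86 to 12.03 in air females, and 12.82, 12.80, 12.82 and 11.55 in SHS males and 12.11 to 12.64 in air males. Averaged over all 8 plasma cell markers measured, the level was 10.80 on SHS female replicate 4 and 11.39 to 11.47 on the other SHS females, against 10.90 to 11.16 in air females. It was 10.66 on SHS male replicate 4 and 11.25 to 11.47 on the other SHS males, against 11.06 to 11.40 in air males. With all arrays 1 of the 8 markers rose in females, Irf4 at 0.81 ± 0.19 (adjusted p = 0.0272), and 0 in males, and without both arrays numbered 4 the counts were 3 and 3. The 8 markers went in both directions with all arrays. Their differences ran from -0.31 to 0.81 in females (median 0.07) and from -0.34 to 0.62 in males (median -0.11). The lower end in females was Ighm, at 13.17 on SHS replicate 4 and at least 14.95 on the other SHS females. Ighm measured 14.83 to 15.08 in air females. Tnfrsf17 was at 6.9 on SHS female replicate 4, 7.75 to 7.93 on the other SHS females and 7.43 to 7.95 in air females. Its female difference was -0.08, and those of Jchain and Sdc1 were -0.08 and -0.06. The part of plasma cells in the members' differences was not tested.

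All 9 markers of dividing cells that were measured rose in both sexes, with median differences of 1.18 in females and 1.01 in males. Their mean level was 8.31 to 9.07 in SHS females, 7.48 to 7.81 in air females, 8.47 to 8.97 in SHS males and 7.64 to 7.93 in air males. The number 4 arrays were the lowest SHS arrays here too. Goblet cell markers, of which Muc5ac, Agr2 and Foxa3 rose in males (3 of 8) and 0 in females, averaged 9.70 to 9.85 in SHS males and 8.99 to 9.61 in air males, and 9.46 to 10.2 in SHS females and 9.62 to 9.91 in air females. Agr2, itself an ER disulfide isomerase of mucus cells, rose by 0.96 ± 0.22 in males (adjusted p = 0.0185). Of the alveolar type 2 markers, 0 of 7 rose in either sex, and Abca3 and Etv5 fell in males. The club cell marker Scgb3a2 fell in both sexes, and the macrophage marker Mrc1 rose in both. The T cell marker Cd8b1 rose and the endothelial Tek and the fibroblast Tcf21 fell in females, and the neutrophil Cxcr2 rose in males. Markers of cardiac muscle, which can be cut out with a lung, passed for 0 of 4 in either sex, with medians of 0.02 in females and 0.79 in males. For B cells, eosinophils, ciliated cells, alveolar type 1 cells, smooth muscle, erythroid cells, adipose tissue and thymus 0 markers passed in either sex. No marker is at 0, since array intensities have a floor above it. The part of these cells in the members' differences was not tested.

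The difference between the sexes was itself tested as the SHS effect in females minus the SHS effect in males. None of the 36 members passed, nor any of the 45037 probe sets (0% of genes), and 6 members had an unadjusted p under 0.05. The share of all genes at that unadjusted threshold was not counted. The widest differences were 0.33 ± 0.18 for Pdia4, 0.26 ± 0.08 for Derl1, -0.30 ± 0.13 for Hyou1 and -0.27 ± 0.09 for Atf4 (limma, adjusted p = 0.653, 0.469, 0.592 and 0.479). The smallest were those of Ssr1 and Chac1, at 0.00 ± 0.08 and 0.00 ± 0.14. A call in 1 sex alone thus is not a shown difference between the sexes.

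Further lists held other genes of the secretory pathway and of stress responses. Their counts are to be read beside the shares of all genes that rose, 3.29% in females, 4.17% in males and 9.2% in the average. N-glycosylation had the highest share of the 9 lists in each: 8 of 15 genes rose in females, 10 in males and 11 in the average, with medians of 0.31 and 0.29 in the sexes. The largest rises in females were those of Gmppb, which makes GDP-mannose, at 0.65 ± 0.09 (adjusted p = 0.000732), and of the oligosaccharyltransferase subunits Ostc at 0.49 ± 0.08, Ddost at 0.39 ± 0.08 and Rpn1 at 0.36 ± 0.07. In males they were those of the subunits Rpn2 at 0.57 ± 0.06 (adjusted p = 9.99e-05) and Ddost at 0.50 ± 0.08, of Gmppb at 0.48 ± 0.09 and of Ostc at 0.46 ± 0.08.

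Of 21 other ER folding enzymes, 7 rose in females, 3 in males and 12 in the average (medians 0.20 and 0.19 in the sexes). In females the prolyl isomerases Fkbp11, at 0.60 ± 0.13, and Fkbp2, at 0.56 ± 0.10, led, followed by the thioredoxin-domain proteins Txndc11 at 0.46 ± 0.10 and Erp44 at 0.35 ± 0.09. In males the 3 were the glucosidases Mogs at 0.46 ± 0.08 and Ganab at 0.30 ± 0.07 and the prolyl isomerase Ppib at 0.25 ± 0.07. Of 18 other translocation genes, 5 rose in each sex and 10 in the average (medians 0.22 and 0.15). Ssr2 of the TRAP complex measured 0.54 ± 0.08 in females and 0.52 ± 0.08 in males, the signal peptidase subunit Spcs3 0.54 ± 0.10 and 0.35 ± 0.10, and the channel subunit Sec61a1 0.43 ± 0.07 and 0.45 ± 0.07, all called in both sexes. Spcs2, at 0.32 ± 0.07, was next in females, and the signal recognition receptor subunit Srprb, at 0.42 ± 0.08, was among the 4 largest in males.

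ER to Golgi transport had 5 of 21 in females, 4 in males and 9 in the average (medians 0.17 and 0.13). In females the 4 largest rises were those of the retrieval receptor Kdelr3 at 0.44 ± 0.11, the coat protein Sec24d at 0.41 ± 0.08, the cargo receptor Surf4 at 0.38 ± 0.07 and the coat protein Sec23b at 0.36 ± 0.07. In males they were those of Sec23b at 0.42 ± 0.07, Tmed9 at 0.40 ± 0.10, Surf4 at 0.36 ± 0.07 and the cargo receptor Lman1 at 0.32 ± 0.08. Other degradation genes had 2 of 19 in females, 1 in males and 5 in the average (medians 0.14 and 0.09), and the single call in males is near the share of all genes. Vcp, the ATPase that pulls proteins from the ER, measured 0.25 ± 0.06 in females and 0.22 ± 0.06 in males, and Selenos 0.28 ± 0.06 in females.

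Other ATF4 targets had 6 of 20 higher in females, 9 higher and 1 lower in males, and 10 higher and 1 lower in the average (medians 0.19 and 0.23 in the sexes). The 4 largest rises in females were those of Psat1 at 0.79 ± 0.12 and Phgdh at 0.74 ± 0.15, enzymes of serine synthesis, and of Shmt2 at 0.52 ± 0.11 and Mthfd2 at 0.48 ± 0.09, enzymes of one-carbon metabolism. In males Vldlr, a lipoprotein receptor, fell by 0.78 ± 0.12 (adjusted p = 0.000903), while Psat1 rose by 0.76 ± 0.12, the amino acid transporter Slc7a5 by 0.63 ± 0.18 and Phgdh by 0.56 ± 0.15. Of 13 other stress regulators, 0 rose in females, and Creb3l1, an ER-bound factor related to ATF6, rose in males by 0.52 ± 0.11 (adjusted p = 0.0124) while the protease gene Mbtps2 fell by 0.24 ± 0.07 (adjusted p = 0.049). In the average 2 of the 13 rose, Creb3l1 and Traf2.

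Outside the ER, calls within a sex were few. They are to be read beside the shares of all genes that rose, 3.29% in females, 4.17% in males and 9.2% in the average. Of 8 mitochondrial chaperones, 0 rose in females, 1 in males, Hspd1 at 0.35 ± 0.09, and 4 in the average, Hspe1 at 0.30 ± 0.07, Hspd1 at 0.29 ± 0.06, Grpel1 at 0.21 ± 0.05 and Hspa9 at 0.17 ± 0.05, with medians of 0.17 in females, 0.15 in males and 0.16 in the average. Of 16 cytosolic heat shock genes, 0 rose in females, and Hspb8 rose in males, at 0.38 ± 0.10, and in the average, at 0.26 ± 0.07, with medians of 0.05, 0.12 and 0.11. The single cytosolic call, in males and in the average, is near the share of all genes and is no result about that list. Whether the lists differ from each other or from the 36 members was not tested.

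**Figure D5:**
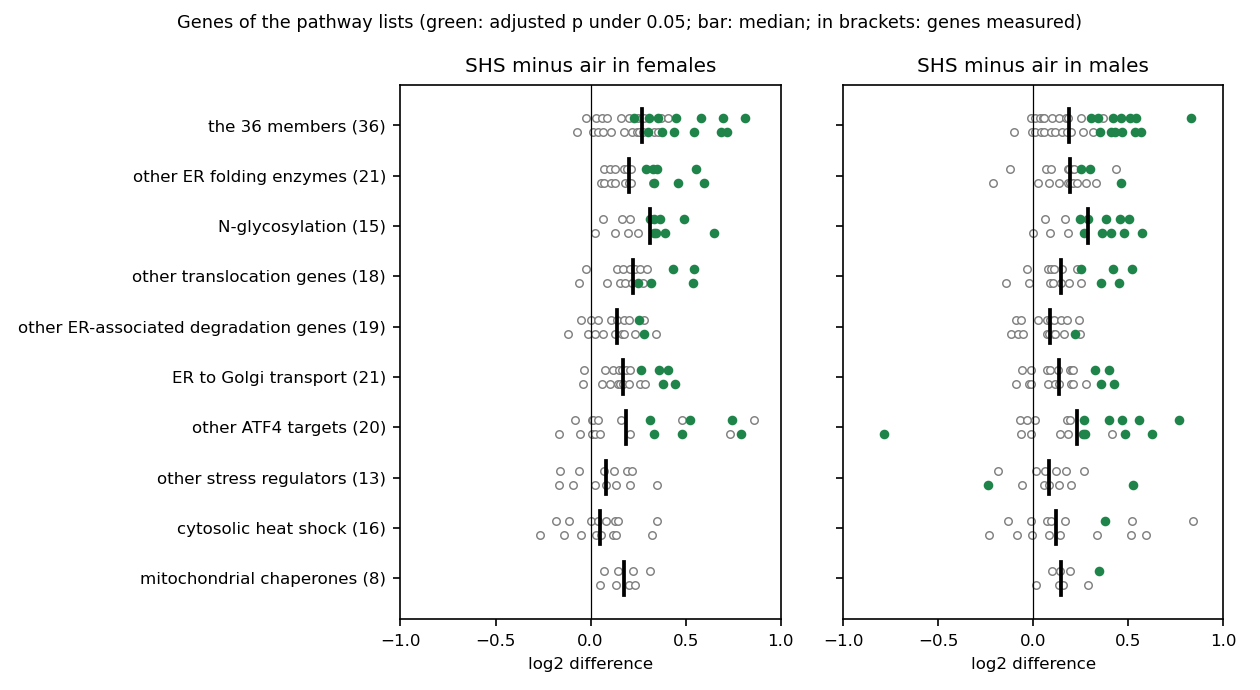
Log2 difference of SHS minus air for every gene of the 36 and of the 9 pathway lists, in females (left) and in males (right), with green points for an adjusted p under 0.05 and a black bar for the median of each list. The bar is furthest right for N-glycosylation, at 0.31 in females and 0.29 in males.

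Read against the promoter windows, the 10 members with the ER stress element had medians of 0.36 in females and 0.27 in males, with 6 and 5 of them higher. The 21 members with a window and no element had medians of 0.24 and 0.20, with 6 and 7 higher. In the average 8 of 10 and 12 of 21 rose, so both kinds of member were among those that rose. The member with the largest difference, Sdf2l1, had a window without the element, and Derl3 and Ero1b had it and passed in no comparison with all arrays.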

How the data were processed

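Gene expression was measured on 16 Affymetrix mouse genome arrays, 1 left lung each, in 4 groups of 4. The values are log2 expression values per probe set, as deposited by the authors in the series' value table; no source used here states their background correction, summarisation or normalization. Limma appears, with no version, among the tools of the submitters' processing notes. Values ran from 2.58 to 15.2 and array medians differed by little. The scanner files were not analysed here, so depth over background is unknown and the number of arrays limits the precision.

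The table held 45101 features, and the 64 controls among them were dropped. Of the remaining 45037, 34945 had 1 gene symbol in the platform annotation, 932 several and 9160 none. A gene was read from its single-symbol probe set with the highest mean, which gave 18193 genes. One model of 4 group means was fitted to all 45037 probe sets with limma 3.58.1 (lmFit, eBayes; R 4.3.3), with Benjamini-Hochberg adjustment over all of them and a call at an adjusted p under 0.05. The fit was tested on simulated data with known fold changes. Of 1.25-fold changes, 22% were recovered within each sex and 50% in the average. Of 1.5-fold changes, 78% were recovered within each sex and 86% in the average. Since the adjustment depends on how many probe sets change, and the members are brighter than most, these rates do not give the power for the members. A gene that did not pass may still differ by a small fold. Contrasts were SHS minus air within each sex, their average, and their difference. Folds are 2 to the power of the log2 difference. Female and male levels were not compared.

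All 36 members are named, with up to 4 called genes of each further list and comparison, those with the largest differences. The members and lists were chosen with earlier results of these data known. Of the further lists, 151 of 156 pathway genes and 105 of 115 marker genes were measured. Promoter windows came from RefSeq (GRCm38.p6) and matched 31 of 36 members. Replicates are labelled as biological, but litters are not given. Alternatives were another normalization, a filter on low values, a replicate block, array weights, another prior, other thresholds, the mean of a gene's probe sets and leaving out arrays. The fit without either SHS array numbered 4 was chosen after seeing the data.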

Additional observations from a re-analysis of the deposited data

Results flagged for a closer look

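Of 148 groups of 4 values, 144 were levels of 1 member in 1 group of arrays and 4 were the members' medians per array. In 9 of them, all levels of single members, 1 value lay far from the other 3 as judged by its gap to the nearest of them against the group's range, at Dixon's 95% level. Chance gives such a gap in about 1 group in 20. For 4 genes the array was SHS male replicate 4, with log2 levels of 12.20 for Pdia3 (12.48 to 12.52 on the other SHS males), 11.05 for Pdia4 (11.38 to 11.44), 10.75 for Edem1 (11.73 to 11.79) and 8.53 for Derl3 (9.20 to 9.27). All 4 values were below those of the other SHS males. Sel1l was high on SHS male replicate 3, at 11.26 against 11.15 to 11.16 on the other SHS males. The remaining values came from air arrays. P4hb was 12.42 on air male replicate 4 (12.20 to 12.22 on the other air males), Ero1b 10.27 on air male replicate 2 (10.22 to 10.23), Chac1 7.22 on air male replicate 3 (7.36 on each of the other air males), and Derl2 10.42 on air female replicate 3 (10.52 to 10.53 on the other air females).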

How the results depend on the processing

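In every alternative run, 0 members fell in females, in males or in the average, and the difference between the sexes called 0 members and 0 probe sets. The number of members that rose in females was 6 when the female arrays were fitted alone, 23 with array weights, 22 without both SHS arrays numbered 4 and 4 with a minimum of 1.5-fold, which left 1 in males and 3 in the average. Among the calls lost with the female arrays alone were Calr, Sec61b and Ssr1. Probe sets called in females numbered 448 with these arrays alone, 3985 with array weights, 2334 at an adjusted p under 0.10, 366 with the 1.5-fold minimum and 3954 without both SHS arrays numbered 4, against 1294. In males they numbered 4398 with array weights, 4073 at an adjusted p under 0.10 and 463 with the 1.5-fold minimum, against 2332. In the average they numbered 7717, 406 and 7520 with array weights, with the 1.5-fold minimum and without both SHS arrays numbered 4, against 4652. The members' median in males was 0.25 without both SHS arrays numbered 4. Without 1 array at a time, 10 to 19 members rose in females, 9 to 12 in males and 19 to 24 in the average. Probe sets called then numbered 657 to 3604 in females, the highest without SHS female replicate 4, 1073 to 2105 in males and 3514 to 6983 in the average. The medians then lay at 0.25 to 0.31, 0.17 to 0.25, 0.21 to 0.26 and, for the difference between the sexes, 0.0121 to 0.0998. The cause of these shifts was not tested.

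Same-numbered SHS and air arrays had deviations that correlated at -0.08, 0.27, -0.08 and 0.09 in females and 0.04, 0.12, 0.02 and 0.06 in males, so the numbers were not taken to pair the arrays. With the replicate block 12 members rose in females, 12 in males and 21 in the average (1537, 2439 and 5061 probe sets called), and the difference between the sexes again called 0.

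Signs turned for differences that had not passed the test. With quantile normalization Hyou1 and Ern1 were -0.0215 and -0.00597 in females, and Derl1 and Ern1 -0.00709 and -0.0104 in the average. With array weights Hyou1, Atf6 and Trib3 were -0.0227, 0.0215 and -0.000266 in females, Ern1 0.00291 in males and Atf6 0.00673 in the average. With the mean of a gene's probe sets Herpud1 and Atf6 were -0.000275 and 0.18 in females, Derl1, Atf6 and Xbp1 0.15, 0.10 and -0.064 in males, and Atf6 and Xbp1 0.14 and -0.0222 in the average, where Atf6 passed the test (adjusted p = 0.0242). Without both SHS arrays numbered 4, Ern1, Atf6 and Ppp1r15a were 0.0129, 0.00386 and -0.0224 in males. Without 1 array at a time, female differences ranged from -0.0488 to 0.10 for Hyou1, -0.0189 to 0.13 for Ern1, -0.0575 to 0.0354 for Atf6 and -0.00563 to 0.0971 for Trib3. Male differences ranged from -0.0139 to 0.23 for Derl3, -0.0406 to 0.0129 for Ern1, -0.0417 to 0.0148 for Atf6, -0.0244 to 0.0443 for Xbp1 and -0.0342 to 0.0515 for Ppp1r15a, and averaged ones from -0.0157 to 0.0565 for Ern1 and -0.0341 to 0.0149 for Atf6.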
